A study of Mus musculus with 2 samples.

Results

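The clustered histone genes of the mouse lie in 4 groups on different chromosomes and were read here in CD45+ cells, the leukocyte fraction, of skin treated with house dust mite. Members were all genes whose symbol starts with Hist1h, Hist2h, Hist3h or Hist4h, which gave 69 of the 27998 genes listed. Of these, 61 had 20 or more molecular identifiers (UMIs, each standing for 1 captured RNA molecule) over the kept cells of both libraries, among 14650 such genes in all. The members comprise 6 genes of linker histone H1, 19 of H2A, 19 of H2B, 12 of H3 and 13 of H4. The 8 members below 20 UMIs were Hist1h2ah and Hist1h2al with 12 UMIs each, Hist2h2aa2 with 10, the testis H1 gene Hist1h1t with 2, and Hist1h2aa, Hist1h2ba, Hist1h2bq and Hist1h2br with 0.

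The 2 groups were knockout mice for the alpha chain of the receptor of IL-31, a cytokine of itch (IL31RAKO), and wild-type (WT) mice, both C57Bl/6. Both received Biostir ointment with D. farinae house dust mite on shaved back skin for 3 weeks, 2 applications weekly, with 2% SDS before each, and live CD45+ cells were sorted from 4 pooled mice. Each group was 1 droplet library made with the 10x Single Cell 3′ version 2 kit, so no comparison below has a replicate or a test, and ratios are between libraries or between cells of 1 library. Age and sex are not given in the labels, nor is how the receptor gene was disrupted. Values in brackets after a ratio or share are 95% intervals, for counting error alone.

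The IL31RAKO library held 71333292 UMIs and the WT library 57000499. Barcodes with 500 or more UMIs, 250 or more genes and under 10% mitochondrial UMIs were kept, 14619 in IL31RAKO and 11934 in WT. Of their sequences, 247 occurred in both libraries, where 236.6 would be shared by chance. Ptprc, the gene of CD45, was detected in 75.1% of kept IL31RAKO and 72.3% of kept WT cells. The targeted gene, Il31ra, had 26 UMIs in IL31RAKO and 11 in WT, and since a 3′ tag can lie outside a deleted part these counts do not check the genotype. A cell was called positive with 1 or more UMIs of Mki67 or Top2a, both genes of dividing cells, and negative with none. Positive cells numbered 2060 (14.1%) in IL31RAKO and 2147 (17.99%) in WT, with medians of 5539.5 and 4600 UMIs, against 2944 and 2697 UMIs in negative cells.

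Most clustered histone genes are known as replication-dependent genes. They are transcribed in S phase to package new DNA, and their mRNAs end in a conserved stem-loop bound by the stem-loop binding protein (Slbp) instead of a poly(A) tail. Some members are also known to give polyadenylated transcripts in cells that do not divide, while histone genes outside the clusters, such as H3f3b and H2afz, supply variants at all times. The kit used here primes on poly(A), so the levels below are those of captured RNA and not of all histone mRNA. Levels are counts per 1e6 UMIs (CPM), summed over the cells named and not divided by transcript length, since a UMI is read near the 3′ end.

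All 69 members were placed on GRCm38 with the GENCODE M21 annotation. The 55 Hist1 genes lay on chromosome 13, the 11 Hist2 genes at chr3:96219865-96279001, the 2 Hist3 genes at chr11:58948920-58956830 and Hist4h4 at chr6:136801553-136804415. The 16-base stem-loop was found, with at most 1 mismatch, in an annotated transcript of 46 of the 69 members and of 44 of the 61 detected. It is shown for the members that the levels below set apart, 5′ to 3′ with the stem and loop in capitals, on the strand of each gene. Hist1h2ap (chr13:21833026-21833507, minus strand), Hist1h2ae (chr13:23570517-23571220, minus) and Hist1h4d (chr13:23581598-23582735, plus) were far higher in positive cells, while Hist1h1c (chr13:23738808-23740367, plus), Hist2h2aa1 (chr3:96245497-96246082, plus) and Hist3h2a (chr11:58954685-58956830, plus) were not.
Hist1h2ap: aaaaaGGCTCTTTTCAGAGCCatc
Hist1h2ae: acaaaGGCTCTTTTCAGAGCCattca
Hist1h4d: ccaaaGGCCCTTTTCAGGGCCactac
Hist1h1c: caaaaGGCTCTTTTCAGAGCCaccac
Hist2h2aa1: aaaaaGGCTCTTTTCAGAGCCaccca
Hist3h2a: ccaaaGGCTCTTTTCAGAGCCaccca
The element was thus present in members on both sides of that contrast. The longest annotated transcript went on for 3 bases after it in Hist1h2ap, 35 in Hist2h2aa1, 151 in Hist1h2ae, 770 in Hist1h4d, 840 in Hist1h1c and 1643 in Hist3h2a. Among detected members, the 22 with under 100 bases after the stem-loop had a median ratio of positive over negative cells of 6.63 in IL31RAKO and 10.0 in WT. The 22 with 100 or more bases after it had medians of 2.08 in IL31RAKO and 2.71 in WT, and the 17 without a stem-loop in an annotated transcript had 5.74 in IL31RAKO and 7.07 in WT. Some of these 17 have short annotated transcripts, such as 381 bases in Hist1h2bl and 312 in Hist1h4k. A stem-loop past the annotated end would not have been found, so these members are not shown to lack it. The medians describe the annotation beside the levels, and no test was made.

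The promoters of 3 linker histone genes are shown because the genes share motifs and differ in the levels that follow. They are the 250 bases before the start site in RefSeq, build GRCm38.p6, on the strand of the gene, with matches in capitals to CCAAT (the box bound by NF-Y), TATAAA (the TATA box), ATTTGCAT (the octamer) and AAACACA (an element described in H1 promoters), each searched on both strands. Hist1h1b was taken from chr13:21780626-21780875 (minus), Hist1h1e from chr13:23622559-23622808 (minus) and Hist1h1c from chr13:23738557-23738806 (plus).
Hist1h1b: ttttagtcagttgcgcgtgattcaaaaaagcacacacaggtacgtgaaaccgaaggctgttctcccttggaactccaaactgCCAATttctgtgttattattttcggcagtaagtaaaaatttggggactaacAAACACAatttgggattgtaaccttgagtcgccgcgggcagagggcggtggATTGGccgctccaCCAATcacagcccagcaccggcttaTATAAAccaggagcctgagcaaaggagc
Hist1h1e: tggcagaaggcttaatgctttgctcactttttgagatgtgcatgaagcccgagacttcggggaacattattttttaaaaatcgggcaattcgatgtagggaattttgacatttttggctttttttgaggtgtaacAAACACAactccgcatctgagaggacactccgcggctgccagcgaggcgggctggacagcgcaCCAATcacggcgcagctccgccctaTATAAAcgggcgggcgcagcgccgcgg
Hist1h1c: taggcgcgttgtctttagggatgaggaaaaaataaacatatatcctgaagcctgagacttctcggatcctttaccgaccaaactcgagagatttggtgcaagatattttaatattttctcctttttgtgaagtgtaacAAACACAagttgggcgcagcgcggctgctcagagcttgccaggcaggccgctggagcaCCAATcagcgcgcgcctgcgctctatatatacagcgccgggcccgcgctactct
All 3 windows held CCAAT and AAACACA, and those of Hist1h1b and Hist1h1e also held TATAAA. Over the 63 members with a RefSeq window, CCAAT was found in 52 (82.5%), against 34.5% of all 27025 windows of that length. TATAAA was found in 29 members (46.0%, against 12.97% of all windows), ATTTGCAT in 15 (23.8%, against 1.61%) and AAACACA in 9 (14.3%, against 6.22%). The motifs were split by histone type, with the octamer in 7 of 18 H2A and 8 of 17 H2B windows and in none of the 6 H1, 10 H3 and 12 H4 windows, and AAACACA in 5 of 6 H1 windows. Both Hist2h2bb members have 1 and the same window, which holds the octamer, and many H2A and H2B genes are divergent neighbours whose windows overlap, so these counts are not independent, and a motif match is a description of letters only.

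Clustered histone RNA was higher in positive cells of both libraries. Summed over members it reached 2015 CPM in positive and 509.6 CPM in negative cells of IL31RAKO, a ratio of 3.95 (3.89 to 4.02), and 2613 and 492.7 CPM in positive and negative cells of WT, a ratio of 5.30 (5.21 to 5.40). At least 2-fold higher levels in positive cells were found for 40 of the 58 members with 20 or more UMIs in IL31RAKO, where 4.86% of all 13757 such genes passed, and for 43 of 59 in WT, where 4.76% of 13476 passed. At least 2-fold lower levels were found for 0 of 58 members in IL31RAKO (5.31% of all genes) and for 1 of 59 in WT (4.15%), Hist2h3c1, an H3 gene with 77 UMIs in all (0.365, 0.0930 to 1.04) that was named after its value was seen. The median log2 ratio of members was 1.77 in IL31RAKO, against 0.02 over all genes, and 1.95 in WT, against 0.00. The ratio was 2 or more in both libraries for 40 of the 61 detected members, 10 or more in both for 11 and under 2 in both for 14. For these calls in both libraries no share over all genes was counted, so only the 2-fold shares of the single libraries stand beside them.

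Hist1h2ap, an H2A gene, carried the largest part of this signal. It had 914 CPM in positive and 32.3 CPM in negative cells of IL31RAKO, and 1181 CPM in positive and 34.9 CPM in negative cells of WT. The ratios were 28.3 (26.8 to 29.8) in IL31RAKO and 33.9 (31.9 to 36.0) in WT, which ranked it 14 of 13757 genes and 7 of 13476 genes. It made up 45.4% of the clustered histone UMIs of positive cells in IL31RAKO and 45.2% in WT, and without it the summed ratio was 2.31 in IL31RAKO and 3.13 in WT. Another member, Hist1h2ae, also an H2A gene, had 165 CPM in positive and 7.43 CPM in negative cells of IL31RAKO, and 263 CPM in positive and 10.98 CPM in negative cells of WT. Its ratios were 22.2 (19.9 to 24.9) in IL31RAKO and 23.9 (21.5 to 26.7) in WT.

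The level of Hist1h2ap in negative cells was not above that of free RNA. Barcodes with 10 to 50 UMIs, which hold free RNA and not cells, had 52.6 CPM of Hist1h2ap in IL31RAKO and 89.2 CPM in WT, over 189990 and 235401 UMIs in all. Summed over members, the free RNA held 521 CPM in IL31RAKO and 599 CPM in WT, against 509.6 and 492.7 CPM in negative cells. Free Hist1h2ap rested on 10 UMIs in IL31RAKO and 21 in WT, and no interval was computed for these comparisons. The split of reads among near-identical copies is uncertain. In Hist1h2ap, 92.2% of the 98-base stretches of its annotated transcripts, the length of the transcript read, also occur in transcripts of other genes. That share was 88.3% in Hist2h2aa1, which overlaps Gm20634 on the same strand, 31.0% in Hist1h2ae, 5.2% in Hist1h1c and 0% in Hist1h1b and Hist1h4d. It was at least 50% in 21 of the 61 detected members. Of these 21, 15 were 2-fold or more higher in positive cells of both libraries, against 40 of all 61.

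Linker histone genes differed widely in this ratio. Hist1h1b (histone H1.5) had 116 CPM in positive and 9.09 CPM in negative cells of IL31RAKO, and 140 CPM in positive and 9.69 CPM in negative cells of WT, ratios of 12.8 (11.5 to 14.2) and 14.4 (12.8 to 16.3). Hist1h1e (H1.4) stood between, with 139 and 43.7 CPM in positive and negative cells of IL31RAKO and 173 and 44.9 CPM in those of WT, ratios of 3.17 (2.98 to 3.37) and 3.85 (3.61 to 4.12). Hist1h1c (H1.2) hardly differed, with 109 CPM in positive and 108 CPM in negative cells of IL31RAKO (1.02, 0.959 to 1.08), and 111 and 104 CPM in positive and negative cells of WT (1.07, 1.01 to 1.14). These are the 3 genes whose promoters are printed above. Hist1h1d (H1.3) was intermediate, with 24.2 and 7.69 CPM in positive and negative cells of IL31RAKO (3.14) and 34.9 and 9.33 CPM in those of WT (3.74), and Hist1h1a (H1.1), with 370 UMIs in all, was at 10.7 in IL31RAKO and 7.37 in WT. Hist1h1e overlaps Hist1h2be on the same strand, so reads of this pair may be split uncertainly.

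Core histone genes divided in the same way. Ratios of 2 or more in both libraries were found for 12 of 15 detected H2A genes, 10 of 16 H2B genes, 10 of 12 H3 genes and 4 of 13 H4 genes, as well as 4 of 5 H1 genes. Over all genes, 4.86% passed in the IL31RAKO library and 4.76% in the WT library, and no share was counted for both. Beside Hist1h2ap, several members with few UMIs in negative cells had high ratios. Hist1h2af (H2A) was at 75.6 (24.8 to 376) in IL31RAKO and 46.7 (22.0 to 118) in WT, Hist1h3g (H3) at 61.7 in IL31RAKO and 24.3 in WT, Hist1h3b (H3) at 45.4 in IL31RAKO and 33.5 in WT and Hist1h2ab (H2A) at 35.6 in IL31RAKO and 33.8 in WT. Among H4 genes, Hist1h4d had 34.8 and 5.55 CPM in positive and negative cells of IL31RAKO and 46.4 and 7.79 CPM in those of WT, ratios of 6.26 and 5.95. Hist1h4i (H4) was less far apart, with 29.6 and 16.7 CPM in positive and negative cells of IL31RAKO (1.77) and 37.8 and 14.3 CPM in those of WT (2.64). Hist2h2ac (H2A) had 20.98 and 5.59 CPM in positive and negative cells of IL31RAKO (3.75) and 45.3 and 8.25 CPM in those of WT (5.49).

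Ratios were under 2 in both libraries for 14 members, some of which follow. Hist3h2a, an H2A gene of the Hist3 cluster, had 38.5 CPM in positive and 53.4 CPM in negative cells of IL31RAKO (0.722, 0.657 to 0.792), and 26.8 and 40.1 CPM in positive and negative cells of WT (0.668, 0.592 to 0.752). It was the 1 member with an interval below 1 in both libraries, and it overlaps Trim17 on the same strand. Hist2h3c1 and Hist2h3c2 (H3) also had ratios below 1 in both, with intervals that included 1. Hist2h2aa1 (H2A) had 57.0 and 59.3 CPM in positive and negative cells of IL31RAKO (0.962, 0.889 to 1.04), and 66.6 and 45.5 CPM in positive and negative cells of WT (1.46, 1.34 to 1.59). Hist1h2bc (H2B) had 123 and 94.2 CPM in positive and negative cells of IL31RAKO (1.30, 1.23 to 1.38) and 122 and 81.0 CPM in those of WT (1.51, 1.41 to 1.60). In negative cells, Hist1h1c, Hist1h2bc and Hist2h2aa1 made up 21.1%, 18.5% and 11.6% of the clustered histone UMIs in IL31RAKO and 21.01%, 16.4% and 9.24% in WT.

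**Figure D1:**
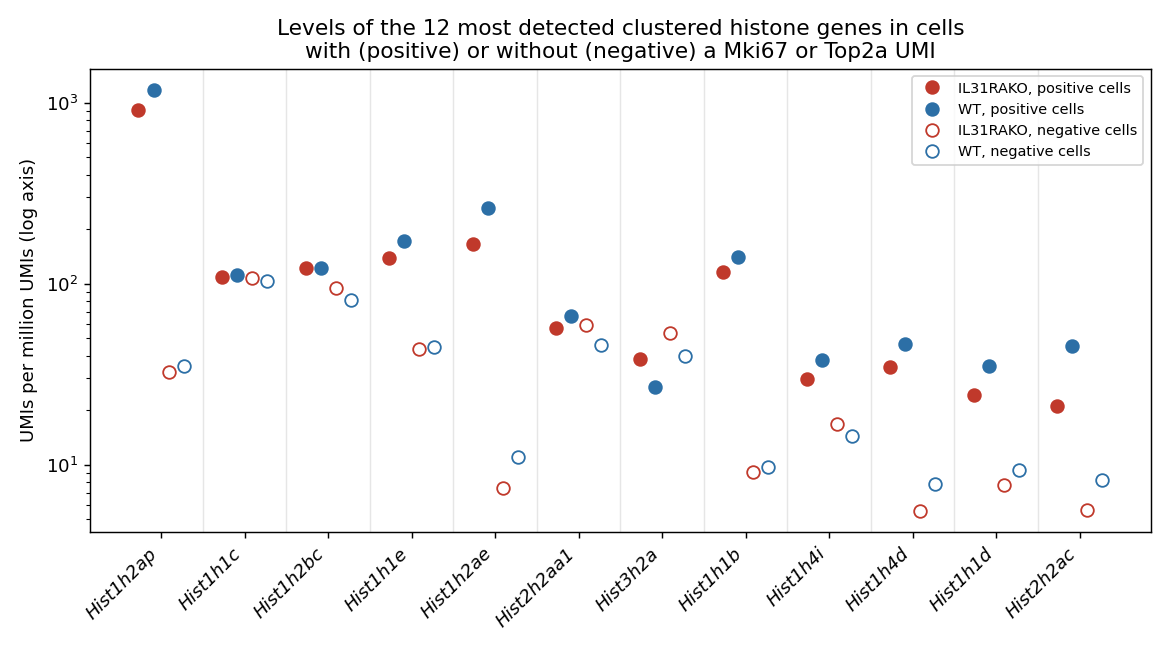
Levels of the 12 most detected clustered histone genes in CPM (log axis), 1 point per library and cell group, with filled points for positive and open points for negative cells. Hist1h2ap and Hist1h2ae show the widest gap between filled and open points, while those of Hist1h1c and Hist2h2aa1 lie close together and Hist3h2a is lower in positive cells.

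**Figure D2:**
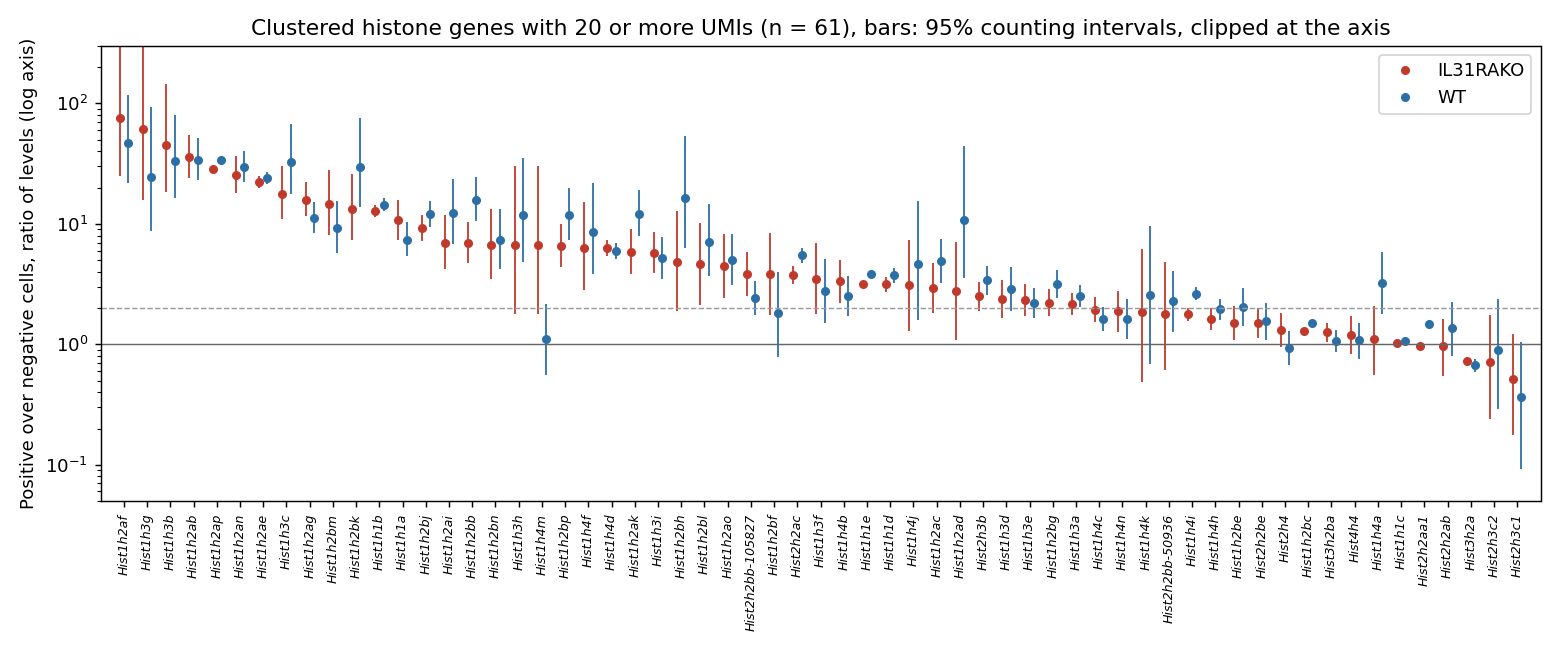
Ratio of levels in positive over negative cells for each of the 61 detected members (log axis), with IL31RAKO in red, WT in blue, and bars for 95% counting intervals. The solid line marks 1 and the dashed line 2, and 40 members lie at or above 2 in both libraries.

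The share of cells with a UMI followed the levels once depth was set equal. Each cell was thinned to 1000 UMIs, which left out 52 positive and 1387 negative cells of IL31RAKO and 75 positive and 1225 negative cells of WT. Hist1h2ap was then found in 19.7% (18.001 to 21.5) of positive and 3.05% (2.74 to 3.39) of negative IL31RAKO cells, and in 23.0% (21.2 to 24.9) of positive and 3.29% (2.93 to 3.69) of negative WT cells. Neutrophil-gated negative cells, known not to divide once mature, held it in 2.74% of IL31RAKO and 2.53% of WT cells, close to the share of all negative cells. Their median depths were 1284 and 1213 UMIs, taken before cells under 1000 UMIs were left out. Without thinning the shares were 32.9% of positive and 9.63% of negative cells in IL31RAKO and 35.2% of positive and 9.76% of negative cells in WT. Hist1h1c at 1000 UMIs was found in 9.26% of positive and 9.47% of negative IL31RAKO cells and in 10.6% of positive and 9.44% of negative WT cells. The UMIs of Hist1h2ap were concentrated in few cells, with up to 165 in 1 cell of IL31RAKO and 162 in 1 cell of WT, against up to 31 and 23 for Hist1h1c.

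Other genes of the histone pathway had lower ratios than most members. Their median log2 ratios of positive over negative cells were 0.26 in IL31RAKO and 0.84 in WT for histone genes outside the clusters, 0.68 and 0.49 for processing and transcription, and 0.63 and 0.61 for chaperones and assembly. Of 11 histone genes outside the clusters, 4 were 2-fold or more higher in positive cells of IL31RAKO and 5 in those of WT, and none was 2-fold or more lower. H2afx, which marks DNA breaks when phosphorylated, was at 5.49 in IL31RAKO and 5.14 in WT, and Cenpa, the centromeric H3 variant, at 3.70 in IL31RAKO and 4.34 in WT. H3f3b, a source of the replacement variant H3.3, was at 0.900 in IL31RAKO and 1.02 in WT, and H2afz (H2A.Z) at 1.74 in IL31RAKO and 1.79 in WT. Of the genes of histone mRNA processing and transcription, 4 of 20 in IL31RAKO and 4 of 19 in WT passed 2-fold. Slbp was at 2.15 in IL31RAKO and 2.23 in WT, Ccne2, a cyclin E gene of S phase entry, at 9.22 in IL31RAKO and 7.51 in WT, and Npat, a coactivator of histone genes, at 1.59 in IL31RAKO and 1.40 in WT. Of 22 genes of histone chaperones and chromatin assembly, 8 passed in IL31RAKO and 6 in WT, led by Asf1b, a chaperone of H3 and H4, at 11.3 in IL31RAKO and 9.18 in WT. The S phase list passed with 28 of 30 genes and the G2/M list with 30 of 30 in each library. Over all genes, 4.86% passed in IL31RAKO and 4.76% in WT.

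Strata were set by library, marker-gated cell type and positive or negative state, with 50 or more cells each. Cells that passed no gate and cells of more than 1 lineage also formed strata. Over the 60 strata, the genes most like the summed clustered histone level were 2810417H13Rik, Cdk1, Pbk, Cdca3, Ska1, Ccna2, Birc5, Nusap1, Cenpf and Nuf2. Pearson correlations on the log2(CPM + 10) scale ran between 0.91 and 0.93. The strata share libraries and depth, and many of them differ by the very genes that set the state, so these are descriptions. Against Hist1h2ap, Hist1h2ae and Hist1h1b each reached 0.98, Hist1h4d 0.93 and Hist1h1e 0.86. Hist2h2aa1 was at 0.29, Hist1h2bc at 0.13, Hist1h1c at 0.09 and Hist3h2a at -0.29. The strata mix positive and negative cells, so these values carry each member's difference between the states and say nothing of cell types within a state.

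Within positive cells, clustered histone RNA was lower in cells leaning to S phase genes than in cells leaning to G2/M genes. A cell's lean was the larger of its UMI numbers over lists of 30 S phase genes, Slbp among them, and 30 G2/M genes. The lists held no clustered histone genes. There were 1181 S-leaning and 599 G2/M-leaning cells in IL31RAKO and 1213 and 633 in WT. The summed level was 1369 CPM in S-leaning and 3440 CPM in G2/M-leaning cells of IL31RAKO (0.398, 0.388 to 0.408), and 1834 and 4327 CPM in S-leaning and G2/M-leaning cells of WT (0.424, 0.415 to 0.433). Hist1h2ap was at 609 and 1608 CPM in S-leaning and G2/M-leaning cells of IL31RAKO (0.379) and 838 and 1974 CPM in those of WT (0.425). Intervals lay below 1 for 40 of 46 members in IL31RAKO, against 12.6% of all 11341 genes, and for 45 of 54 in WT, against 12.2% of 11299 genes. They lay above 1 for 0 members in either, against 11.3% of all genes in IL31RAKO and 12.7% in WT. Hist1h1c differed less, at 0.638 in IL31RAKO and 0.636 in WT, and Hist3h2a was at 1.02 (0.841 to 1.23) in IL31RAKO and 0.795 (0.630 to 1.01) in WT.

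Slbp, whose protein accumulates in S phase, was at 1.51 (1.37 to 1.67) in IL31RAKO and 1.54 (1.40 to 1.69) in WT. It is itself a gene of the S phase list that sets the lean. A ratio above 1 was therefore favoured in advance and is no contrast to the members. Depth was lower in S-leaning cells, with medians of 5736 UMIs against 6707 in G2/M-leaning cells of IL31RAKO and 4736 against 5674 in WT. Genes of the S phase list were also detected in cells without Mki67 or Top2a, with a median over cell types of 545 CPM in IL31RAKO and 512 CPM in WT, against 249.6 and 239 CPM for the G2/M list. Free RNA held 889.5 CPM of the S phase list in IL31RAKO and 926 CPM in WT, and 747 and 629 CPM of the G2/M list. The part of depth and of free RNA in these ratios was not tested.

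**Figure D3:**
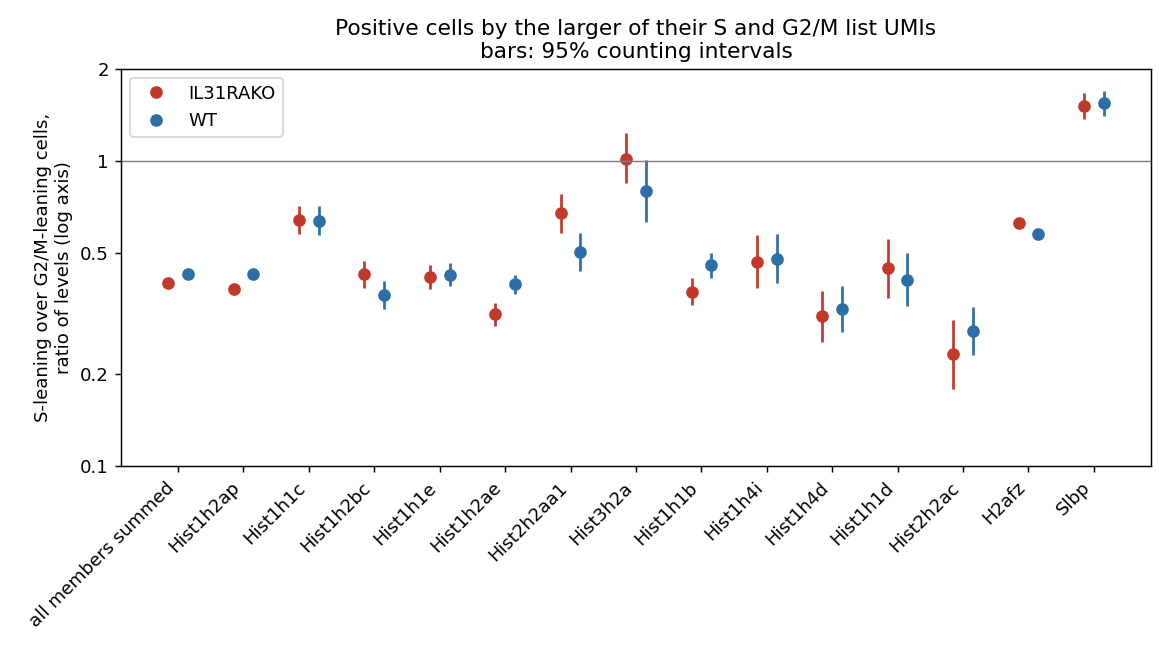
Ratio of levels in S-leaning over G2/M-leaning positive cells (log axis) for the summed members, the 12 most detected members, H2afz and Slbp, with IL31RAKO in red, WT in blue and bars for 95% counting intervals. The summed ratios of 0.398 and 0.424 lie below 1 and Hist3h2a is near 1. Slbp, a gene of the S phase list that sets the lean, lies above 1.

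Cells were next divided by marker genes into classes, here called gated, since they were rebuilt here without the authors' annotation and may differ from the study's cell types. In negative cells the summed level had a median over classes of 489 CPM in IL31RAKO (15 classes) and 471 CPM in WT (16 classes). It was highest in Basophil-gated cells, at 870.4 CPM in IL31RAKO (139 cells) and 1250.1 CPM in WT (87 cells), followed by Neutrophil-gated cells at 854 CPM in IL31RAKO (1345 cells) and 1158 CPM in WT (301 cells) and Langerhans-gated cells at 810.1 CPM in IL31RAKO (144 cells) and 701 CPM in WT (246 cells). Fibroblast-gated cells, which fall outside the sorted fraction, were lowest at 333 CPM in IL31RAKO and 329 CPM in WT. The classes at the top were led by different members.

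Basophil-gated negative cells had the highest Hist1h1c, the H1.2 gene, at 345 CPM in IL31RAKO and 461 CPM in WT, against medians of 95.3 and 98.2 CPM over classes. Their Hist1h2ap, at 106 CPM (43 UMIs) in IL31RAKO and 125 CPM (30 UMIs) in WT, was the highest among classes, but its ratio to free RNA, which held 10 UMIs of the gene in IL31RAKO and 21 in WT, had intervals that included 1 (2.01, 0.997 to 4.50, in IL31RAKO and 1.40, 0.773 to 2.57, in WT). Thinned to 1000 UMIs, 6.62% (3.07 to 12.2) of Basophil-gated negative cells held Hist1h2ap in IL31RAKO and 12.3% (6.08 to 21.5) in WT. Median depths of the class were 2625 and 2626 UMIs, taken before cells under 1000 UMIs were left out. H3f3b was also highest there, at 17376 CPM in IL31RAKO and 17626 CPM in WT, against class medians of 2059 and 2014 CPM. The G2/M list reached 1344 CPM in these cells of IL31RAKO and 1719 CPM in WT, of which Cks2, a cofactor of cyclin-dependent kinases, made up 1225 and 1587 CPM.

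Neutrophil-gated and Langerhans-gated negative cells were highest for Hist1h2bc, an H2B gene. Langerhans-gated cells, dendritic cells resident in the epidermis, had 330.3 CPM in IL31RAKO and 269 CPM in WT, and Neutrophil-gated cells had 254 CPM in IL31RAKO and 358 CPM in WT. T cell classes were far lower, with 35.2 CPM in IL31RAKO and 19.97 CPM in WT in CD8 T-gated cells and 26.2 and 24.8 CPM in Dermal gamma-delta T-gated cells. Hist2h2aa1 was highest in Neutrophil-gated cells, at 234 CPM in IL31RAKO and 201 CPM in WT, against class medians of 52.1 and 47.6 CPM. Hist1h4i was also highest there, at 67.0 CPM in IL31RAKO and 107 CPM in WT, against medians of 13.3 and 13.02 CPM. Hist3h2a was highest in cells gated as cDC1, the cross-presenting dendritic cells, at 107 CPM in IL31RAKO and 70.1 CPM in WT, against medians of 29.9 and 36.0 CPM. Of the genes outside the clusters, H2afz was highest in Mature DC-gated and cDC1-gated cells, at 4524 and 2910 CPM in IL31RAKO and 2493 and 2514 CPM in WT.

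**Figure D4:**
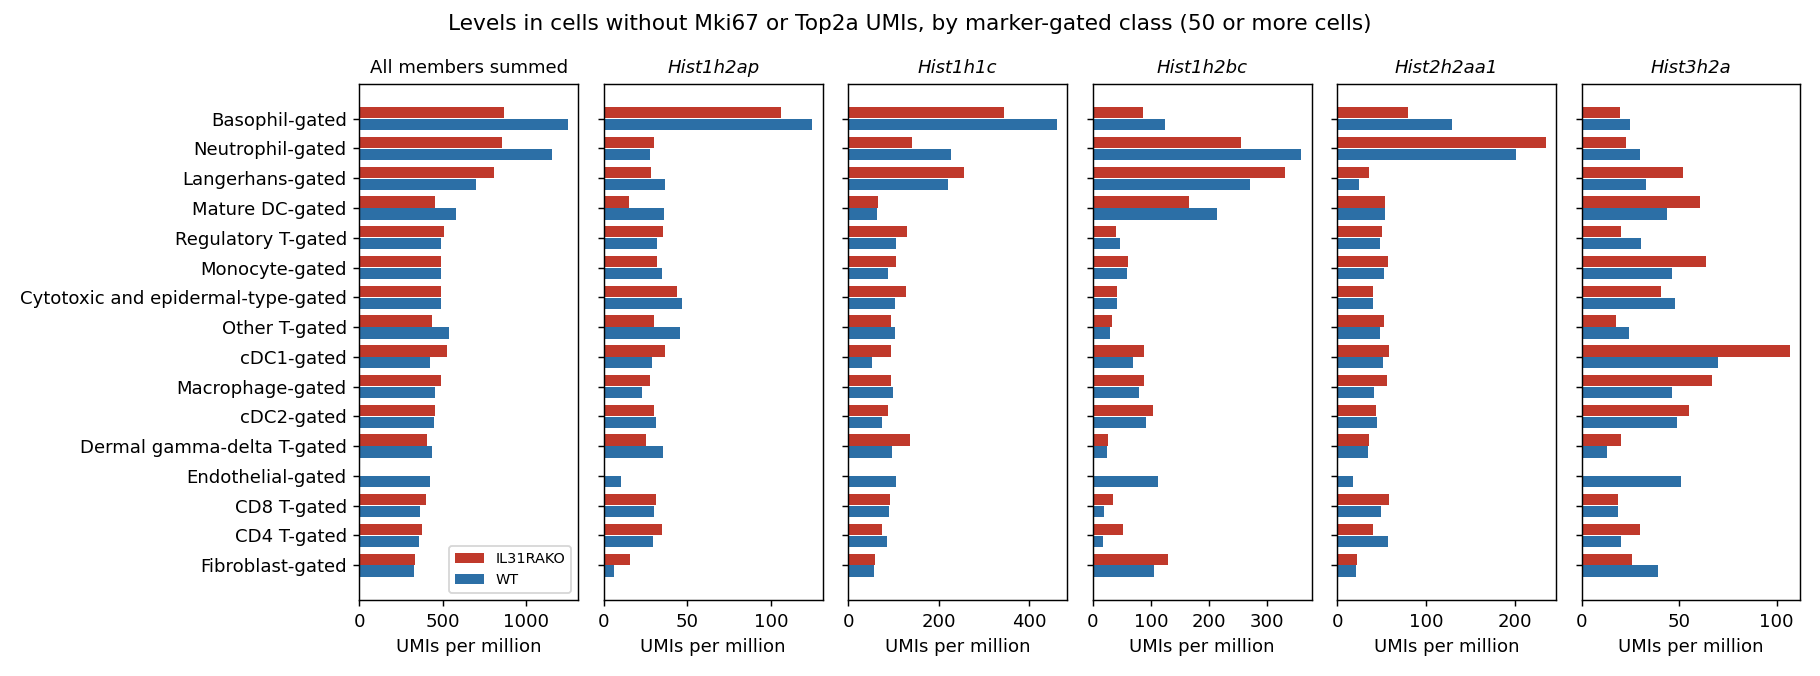
Levels in CPM in negative cells of each marker-gated class with 50 or more cells, for all members summed and for 5 members, with IL31RAKO bars above WT bars. The summed level is highest in Basophil-gated and Neutrophil-gated cells, Hist1h2bc in Langerhans-gated and Neutrophil-gated cells, Hist2h2aa1 in Neutrophil-gated cells and Hist3h2a in cDC1-gated cells.

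In every class that could be compared, positive cells had more clustered histone RNA than negative cells. The summed ratio ran between 1.46 and 7.53 (median 3.16) over 11 classes in IL31RAKO and between 1.57 and 10.7 (median 4.06) over 11 classes in WT. For Hist1h2ap the ratios ran between 6.29 and 54.3 in IL31RAKO and between 6.54 and 66.0 in WT. Hist1h1c was higher in positive cells in 4 of 11 classes in IL31RAKO and 8 of 11 in WT, with intervals above 1 in 1 and 3 classes. The highest summed level was that of positive Regulatory T-gated cells in IL31RAKO, at 3392 CPM (3992 CPM in WT), while in WT it was that of positive Dermal gamma-delta T-gated cells, with 2984 CPM in IL31RAKO and 4705 CPM in WT. Positive Macrophage-gated cells were lower, at 1198 CPM in IL31RAKO and 1426 CPM in WT. The S phase list had 2636 CPM in IL31RAKO and 3277 CPM in WT in positive Regulatory T-gated cells, against 967 CPM in IL31RAKO and 1061 CPM in WT in positive Macrophage-gated cells, so it too was higher in the Regulatory T-gated class.

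Between the libraries, clustered histone RNA summed over members was lower in IL31RAKO in positive cells and similar in negative cells. The summed level over all kept cells gave an IL31RAKO over WT ratio of 0.787 (0.777 to 0.796). It was 2015 CPM in IL31RAKO and 2613 CPM in WT in positive cells, a ratio of 0.771 (0.759 to 0.784), and 509.6 and 492.7 CPM in negative cells, a ratio of 1.03 (1.01 to 1.06). Over all cells, levels at least 1.5-fold lower in IL31RAKO were found for 27 of 61 members, where 9.84% of all 14650 genes passed, and levels 1.5-fold or more higher for 0 of 61 (6.79% of all genes). In positive cells 21 of 58 members were that much lower (8.32% of 12594 genes) and 0 higher (5.86%), and in negative cells 14 of 52 were lower (9.70% of 14199 genes) and 0 higher (6.72%). Among genes with 50 or more UMIs in negative cells, 7 of 40 members were that much lower, against 7.69% of 12835 genes. The median log2 ratio of members was -0.51 in positive cells, against -0.07 over all genes, and -0.27 in negative cells, against -0.10.

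By histone type, the ratio of IL31RAKO over WT in positive cells was 0.844 for H1, 0.742 for H2A, 0.861 for H2B, 0.719 for H3 and 0.763 for H4. Hist1h2ap had 914 CPM in IL31RAKO and 1181 CPM in WT (0.774, 0.756 to 0.793), and Hist1h2ae had 165 and 263 CPM (0.628, 0.596 to 0.663). Hist2h2ac (H2A) had 20.98 CPM in IL31RAKO and 45.3 CPM in WT (0.463, 0.402 to 0.534), and Hist1h2an (H2A) had 20.5 and 44.8 CPM (0.457, 0.396 to 0.527). Hist1h1c was close in the libraries, at 109 CPM in IL31RAKO and 111 CPM in WT (0.983, 0.914 to 1.06), as was Hist1h2bc at 123 and 122 CPM (1.01, 0.939 to 1.08). Intervals lay below 1 for 35 of 58 members, against 20.3% of all genes, and above 1 for 1 (11.6% of all genes), Hist3h2a, with 38.5 CPM in IL31RAKO and 26.8 CPM in WT (1.44, 1.26 to 1.65).

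In negative cells, IL31RAKO over WT intervals lay above 1 for 4 of 52 members (15.0% of all genes), Hist1h2bc (1.16), Hist2h2aa1 (1.30), Hist3h2a (1.33) and Hist1h4i (1.17). They lay below 1 for 18 of 52 members, a share close to the 33.7% of all genes. Hist1h1c, at 1.04, had an interval that included 1. Neutrophil-gated cells, highest for Hist2h2aa1 and Hist1h4i, were 9.56% of kept cells in IL31RAKO and 2.71% in WT. Within 15 classes of negative cells, intervals lay above 1 in 5 for Hist1h2bc, 1 for Hist2h2aa1, 4 for Hist3h2a and 0 for Hist1h4i. They lay below 1 in 1, 0, 0 and 2 classes. The part of the class mix in these negative-cell ratios was not tested. The members farthest apart over all cells, described next, had few UMIs, with 58 for Hist1h4m and 46 for Hist1h3h in all.

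In the next values, brackets hold the IL31RAKO over WT ratio over all cells, and each of these members was past 1.5-fold with an interval below 1. Among H2A genes, which form the dimer with H2B, Hist1h2an had 20.5 and 0.805 CPM in positive and negative cells of IL31RAKO, and 44.8 and 1.505 CPM in those of WT (0.390). Hist1h2ab had 20.3 and 0.572 CPM in positive and negative cells of IL31RAKO, and 29.5 and 0.873 CPM in those of WT (0.575). Hist1h2ag had 15.5 and 0.974 CPM in positive and negative cells of IL31RAKO, and 19.5 and 1.75 CPM in those of WT (0.640). All 3 were far higher in positive than in negative cells. Hist1h2ak had 4.45 and 0.762 CPM in positive and negative cells of IL31RAKO, and 9.76 and 0.813 CPM in those of WT (0.484). Hist1h2af had 4.80 and 0.0635 CPM in positive and negative cells of IL31RAKO, and 9.84 and 0.211 CPM in those of WT (0.396). Hist1h2ac had 2.54 and 0.868 CPM in positive and negative cells of IL31RAKO, and 5.46 and 1.11 CPM in those of WT (0.537). Hist1h2ac overlaps Gm24991 on the same strand, and it was lower in positive cells than the other two. Hist1h2ao had 1.98 and 0.445 CPM in positive and negative cells of IL31RAKO, and 4.07 and 0.813 CPM in those of WT (0.461). The H2B genes of this set were likewise lower in IL31RAKO in positive cells. Hist1h2bj had 17.9 and 1.95 CPM in positive and negative cells of IL31RAKO, and 28.2 and 2.35 CPM in those of WT (0.586). Hist1h2bb had 6.00 and 0.868 CPM in positive and negative cells of IL31RAKO, and 13.4 and 0.843 CPM in those of WT (0.470). Hist1h2bm had 4.31 and 0.297 CPM in positive and negative cells of IL31RAKO, and 6.38 and 0.692 CPM in those of WT (0.533). Each of these was higher in positive cells of both libraries. Hist1h2bk had 3.96 and 0.297 CPM in positive and negative cells of IL31RAKO, and 6.23 and 0.211 CPM in those of WT (0.599). Hist1h2bn had 2.12 and 0.318 CPM in positive and negative cells of IL31RAKO, and 4.00 and 0.542 CPM in those of WT (0.484). Hist1h2bl had 1.27 and 0.275 CPM in positive and negative cells of IL31RAKO, and 2.77 and 0.391 CPM in those of WT (0.477). These last 3 had under 1 CPM in negative cells of both libraries. Hist1h2bh had 0.918 and 0.191 CPM in positive and negative cells of IL31RAKO, and 2.46 and 0.150 CPM in those of WT (0.448). The Hist2h2bb gene ENSMUSG00000105827 had 3.74 and 0.974 CPM in positive and negative cells of IL31RAKO, and 5.69 and 2.35 CPM in those of WT (0.491). The Hist2h2bb gene ENSMUSG00000050936 had 0.495 and 0.275 CPM in positive and negative cells of IL31RAKO, and 1.84 and 0.813 CPM in those of WT (0.295).

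H3 and H4 genes, which form the core tetramer of the nucleosome, and the H1 gene Hist1h1a completed the set. Hist1h3c had 7.49 and 0.424 CPM in positive and negative cells of IL31RAKO, and 10.8 and 0.331 CPM in those of WT (0.625). Hist1h3b had 4.80 and 0.106 CPM in positive and negative cells of IL31RAKO, and 8.07 and 0.241 CPM in those of WT (0.487). Hist1h3f had 1.41 and 0.402 CPM in positive and negative cells of IL31RAKO, and 1.92 and 0.692 CPM in those of WT (0.612). Hist1h3b showed the widest gap between positive and negative cells of these in both libraries. Hist1h3h had 0.565 and 0.0847 CPM in positive and negative cells of IL31RAKO, and 2.15 and 0.181 CPM in those of WT (0.266). Hist1h4m had 0.565 and 0.0847 CPM in positive and negative cells of IL31RAKO, and 1.08 and 0.963 CPM in those of WT (0.197). Hist1h1a had 8.83 and 0.826 CPM in positive and negative cells of IL31RAKO, and 11.8 and 1.60 CPM in those of WT (0.5998). In positive cells the IL31RAKO over WT intervals included 1 for Hist1h3f (0.735, 0.387 to 1.38) and Hist1h4m (0.525, 0.191 to 1.34), whereas those of the other members named here lay below 1.

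In positive cells 0 of 10 histone genes outside the clusters, 0 of 19 genes of histone mRNA processing and transcription and 1 of 22 genes of chaperones and assembly (Asf1a, a chaperone of H3 and H4, at 0.664) were 1.5-fold or more lower. Over all genes that share was 8.32%. The cell cycle lists leaned the same way as the members. Intervals lay below 1 for 24 of 30 S phase genes and 28 of 30 G2/M genes, against 20.3% of all genes. The median log2 ratio was -0.27 for the S phase list and -0.34 for the G2/M list, against -0.07 over all genes. In each of these lists 1 of 30 genes was 1.5-fold or more lower, against 8.32% of all genes. The part of the cell cycle in the members' difference was not tested.

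The difference in positive cells was also computed with the mix of cell classes changed, a step chosen after the data were seen. Dermal gamma-delta T-gated cells made up 2.43% of kept cells in IL31RAKO and 7.58% in WT, and 74 of 355 (20.8%) of them were positive in IL31RAKO and 353 of 904 (39.0%) in WT. Over the 11 classes with 50 or more positive cells in each library, among them cells with markers of more than 1 lineage, the summed ratio was 0.762. With the class mix of IL31RAKO given to both libraries it was 0.957, with that of WT 0.848, and without Dermal gamma-delta T-gated cells it was 0.930. For Hist1h2ap the ratios were 0.758 with each library's own mix, 0.991 and 0.845 with the mixes of IL31RAKO and WT, and 0.966 without that class. Hist1h2ae stayed further below 1, at 0.621, 0.796, 0.745 and 0.760 under the same settings. The leans were similarly divided, with 57.3% of positive cells S-leaning in IL31RAKO and 56.5% in WT, and 29.1% and 29.5% G2/M-leaning. The IL31RAKO over WT ratio of the sum was 0.746 (0.728 to 0.765) in S-leaning and 0.795 (0.779 to 0.812) in G2/M-leaning positive cells. The part of the class mix and of the leans in the difference was not tested.

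Within classes the direction was mixed. Over 10 classes, the summed level of positive cells was lower in IL31RAKO in 8 and higher in 2, with intervals below 1 in 6 and above 1 in 2, and a median ratio of 0.908. Dermal gamma-delta T-gated positive cells had 2984 CPM in IL31RAKO (74 cells) and 4705 CPM in WT (353 cells), a ratio of 0.634 (0.598 to 0.672). Their S phase list was also lower, at 2864 CPM in IL31RAKO and 3559 CPM in WT, as was the G2/M list at 3076 and 4479 CPM. The class of T cells with no marker of a subset had 703 CPM in IL31RAKO (68 cells) and 1575 CPM in WT (124 cells), a ratio of 0.446 (0.367 to 0.539). Regulatory T-gated cells were at 0.850 (0.809 to 0.892), Macrophage-gated at 0.840 (0.786 to 0.899) and cDC2-gated, the dendritic cells that prime CD4 T cells, at 0.876 (0.831 to 0.924).

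CD8 T-gated positive cells went the other way, with 3033 CPM in IL31RAKO (259 cells) and 2665 CPM in WT (258 cells), a ratio of 1.14 (1.09 to 1.19). Monocyte-gated positive cells had 2033 CPM in IL31RAKO (88 cells) and 768 CPM in WT (60 cells), a ratio of 2.65 (2.32 to 3.03), and their Hist1h2ap was at 908 CPM in IL31RAKO and 226 CPM in WT (4.01, 3.16 to 5.16). Their S phase list (1441 CPM in IL31RAKO and 878 CPM in WT) and G2/M list (1506 and 1000.3 CPM) were higher in IL31RAKO as well. In 1 cell there were up to 89 UMIs of Hist1h2ap among the 560 of Monocyte-gated positive cells in IL31RAKO and up to 27 among the 78 in WT, so a single cell held 89 of 560 and 27 of 78. Hist1h2ae was lower in IL31RAKO in 9 of 10 classes of positive cells and in 14 of 15 of negative cells, with intervals below 1 in 8 and 2 classes. In negative cells the summed level was higher in IL31RAKO in 10 of 15 classes and lower in 5, with a median ratio of 1.01.

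The class ratios were also computed without likely doublets, droplets with more than 1 cell. Cells were scored with Scrublet, and those with the highest scores were marked, in a number fixed in advance by each library's cell number. Marked were 11.7% of IL31RAKO and 9.54% of WT cells, shares that restate the cell numbers and do not measure doublets. Among positive cells, 19.1% in IL31RAKO and 17.0% in WT were marked, against 10.5% and 7.90% of negative cells. With the marked cells removed, the ratios of the Macrophage-gated, cDC2-gated and Cytotoxic and epidermal-type-gated positive cells moved above 1, to log2 values of 0.13, 0.04 and 0.12. Of 9 classes, 5 were then lower in IL31RAKO. The part of doublets in these ratios was not tested.

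**Figure D5:**
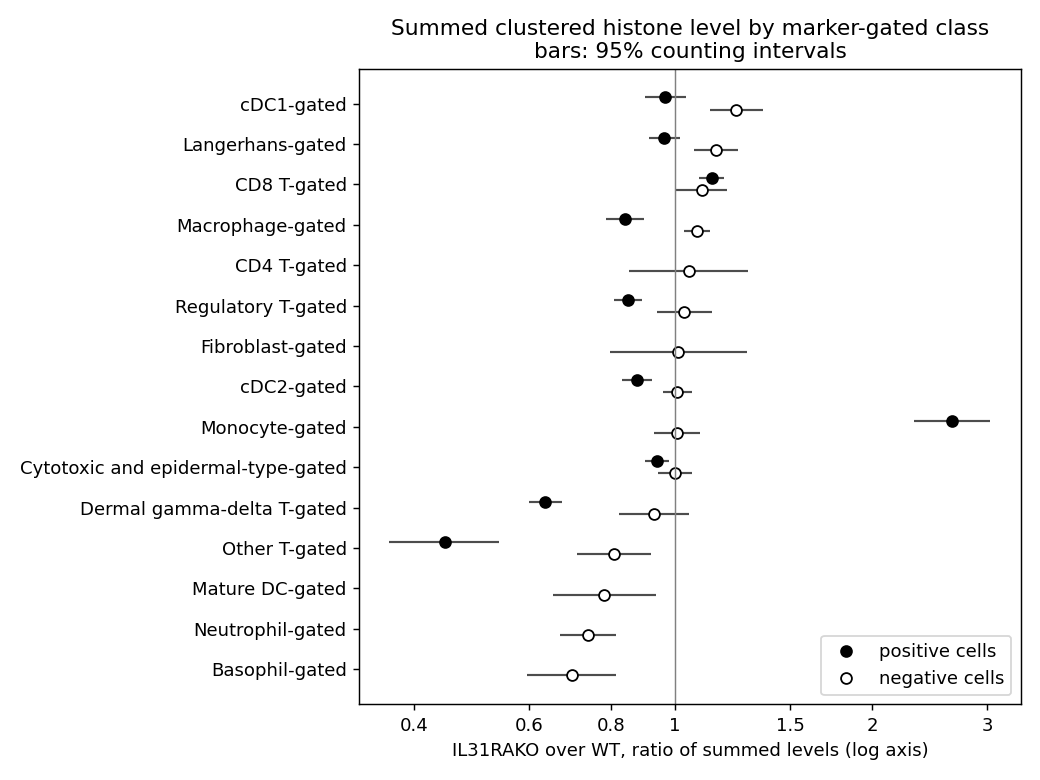
IL31RAKO over WT ratio of the summed clustered histone level by marker-gated class (log axis), with filled points for positive cells, open points for negative cells and bars for 95% counting intervals. Positive cells lie below 1 in 8 of 10 classes, and the Monocyte-gated class at 2.65 and the class of other T cells at 0.446 are farthest from 1.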

How the data were processed

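The deposited values were raw UMI counts per gene and barcode, for all 737280 listed barcodes, empty droplets included, from 10x Single Cell 3′ version 2 libraries per the labels' protocols. Cell Ranger 3.1, Seurat 3.2.2 and mm10 are named in the submitters' processing notes, with no role; the annotation, the strand setting and the handling of reads shared between copies are not given in the sources used here. From these counts, UMIs were summed over cells (Python 3.11.15, NumPy 2.4.6, SciPy 1.17.1, pandas 2.3.3), and ratios have exact conditional binomial 95% intervals and shares exact (Clopper-Pearson) ones. A floor of 3 counts replaced 0 in a ratio. Cells were gated into classes by marker lists, a class needing 50 cells per stratum. Doublets were kept. Removal of the cells with the highest Scrublet scores (scanpy 1.11.5), in a number fixed by the library's cell number, was an alternative. The scripts were tested on simulated counts.

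Members and lists were chosen with earlier results of these data known. Values are given for the 12 members with most UMIs and for those past 1.5-fold between libraries with an interval excluding 1. Genes needed 20 UMIs in the cells compared, and calls were 2-fold between positive and negative cells. Alternatives changed the cell, gene and state thresholds, the total, the weighting of cells, free RNA and the class mix.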

Additional observations from a re-analysis of the deposited data

Results flagged for a closer look

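The differences named here rest on 1 library per genotype and were not tested. In 2 members the IL31RAKO over WT ratio lay on opposite sides of 1 in positive and negative cells, with both intervals excluding 1. Hist2h2aa1 was at 0.856 in positive and 1.30 in negative cells, and Hist1h4i at 0.783 in positive and 1.17 in negative cells. Within 15 classes of negative cells, the interval lay above 1 in 1 class for Hist2h2aa1 and in 0 for Hist1h4i. With positive cells defined by 3 or more list UMIs, the positive-cell ratio of Hist2h2aa1 was above 1 (log2 0.053).

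Classes also lay on opposite sides of 1 for the summed level. In positive cells the ratio was above 1 in CD8 T-gated (1.14) and Monocyte-gated cells (2.65). It was below 1 in Cytotoxic and epidermal-type-gated (0.941), Dermal gamma-delta T-gated (0.634), Macrophage-gated (0.840), Regulatory T-gated (0.850) and cDC2-gated cells (0.876) and in the class of other T cells (0.446). In negative cells it was above 1 in CD8 T-gated (1.10), Langerhans-gated (1.155), Macrophage-gated (1.08) and cDC1-gated cells (1.24), and below 1 in Basophil-gated (0.696), Mature DC-gated (0.781) and Neutrophil-gated cells (0.738) and in the class of other T cells (0.809). With doublets removed, the positive-cell ratios of Macrophage-gated, cDC2-gated and Cytotoxic and epidermal-type-gated cells lay above 1 (log2 0.13, 0.043 and 0.12).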

How the results depend on the processing

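Each group was 1 library, so no replicate could be left out. No paired analysis was possible because each genotype had 1 library and no test was made. Of 808 values recomputed under other settings, 589 stayed within the counting interval of the reported value, or a count within 1.5 times, 210 moved beyond it and 9 changed direction. Intervals hold no variation between mice, and capture on poly(A), free RNA and copies with shared reads limit what the levels stand for.

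Values here are log2 ratios unless named as counts. The positive over negative ratio of the summed level (1.98 in IL31RAKO and 2.41 in WT) was 1.56 and 1.98 as a mean over cells, 2.10 and 2.56 with free RNA subtracted, 2.85 and 3.14 with 2 or more Mki67 and Top2a UMIs, 3.01 and 3.27 with both genes, and 1.04 and 1.44 with 3 or more list UMIs. In WT it was 2.44 at 1000 or more UMIs and 2.47 under 5% mitochondrial UMIs. With 3 or more list UMIs, WT Hist1h1c (-0.062) and Hist2h2aa1 (-0.13) turned lower in positive cells, and Hist2h2aa1 in positive cells turned higher in IL31RAKO (0.053). In each change of direction the cause was not tested. Classes with a 2-fold higher sum in positive cells (9 of 11 in IL31RAKO and 10 of 11 in WT) were 5 of 5 in each with 2 or more UMIs, 4 of 4 and 5 of 5 with both genes, where fewer classes had enough cells, and 5 of 11 and 6 of 12 with list UMIs.

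The IL31RAKO over WT ratio over all cells (-0.35) was -0.37 under 5% mitochondrial UMIs, -0.33 without doublets, -0.37 without mitochondrial, ribosomal and clustered histone genes in the total and -0.24 as a mean over cells. In positive cells (-0.37) it was -0.42 under 5% mitochondrial UMIs, -0.40 as a mean over cells, -0.26 with 2 or more UMIs and -0.24 with both genes. Chosen after seeing the data, the class mix of IL31RAKO gave -0.0635, that of WT -0.24, and leaving out Dermal gamma-delta T-gated cells -0.10. In negative cells (0.05) it was 0.080 with free RNA subtracted and 0.020 with list UMIs, and members 1.5-fold lower numbered 7 of 40 with 50 or more UMIs, against 14 of 52.

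In positive cells, Cytotoxic and epidermal-type-gated cells turned higher in IL31RAKO without doublets (0.12), as a mean over cells (0.14) and with list UMIs (0.10). Macrophage-gated (0.13) and cDC2-gated cells (0.043) did so without doublets, and Regulatory T-gated cells with both genes (0.067). Classes of positive cells lower in IL31RAKO (8 of 10) were 5 of 9 without doublets, 3 of 4 with 2 or more UMIs and 2 of 4 with both genes. Classes of negative cells lower in IL31RAKO (5 of 15) were 10 as a mean over cells and 8 with both genes.

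The S-leaning over G2/M-leaning ratio (-1.33 in IL31RAKO and -1.24 in WT) was -1.80 and -1.69 for a lean of 2 in 3 and -1.47 and -1.54 over all cells with 3 or more list UMIs. Cells with Hist1h2ap thinned to 500 UMIs were 15.5% of positive and 1.505% of negative cells in IL31RAKO and 17.3% and 1.99% in WT, at 2000 UMIs 24.4% and 5.72% in IL31RAKO and 28.6% and 6.03% in WT, and unthinned 32.9% and 9.63% in IL31RAKO and 35.2% and 9.76% in WT.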
